A study of Homo sapiens with 12 samples.

Results

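RKO is a colon carcinoma line, and its mRNA after 24 h in hypoxia (1% O2) was compared with its mRNA in normoxia. The comparison used 4 poly(A)+ RNA-seq libraries, 2 replicates of RKO in normoxia and 2 of RKO in hypoxia, out of 12 in the series. All 4 came from unmodified RKO cells plated a day earlier in DMEM with 10% fetal bovine serum and antibiotic-antimycotic. RKO is 1 established line, so the groups show this line alone, and the 2 replicates a group are described as independent biological replicates; p-values measure the spread between them. Both groups were kept at 37 °C with 5% CO2, and the hypoxic atmosphere was otherwise N2. The other 8 libraries came from the lung lines A549, in the same medium, and H460, in RPMI, each with 2 replicates in either condition. The study asked which genes respond to hypoxia in lines other than the one in which it had defined an acute response. Genes over 0.5 CPM (counted reads per 1e6 of the library) in at least 2 of the 4 RKO libraries were tested, which kept 12817 of 25369 genes.

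Cells sense oxygen through prolyl hydroxylases of the EGLN family, which mark the HIF alpha subunits for destruction by the VHL ubiquitin ligase. In hypoxia HIF1A and EPAS1 escape this, pair with ARNT and bind a short core motif near their target genes, which include glycolytic enzymes, angiogenic factors and the oxygen sensors themselves. Hypoxic cells are also known to spend less on ribosome production and respiration, processes that depend on MYC and on nutrient signalling.

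The libraries held 33423601 to 39076378 counted reads, and replicates differed by more than counting error (chi-square per degree of freedom 40.8 in normoxia and 47.8 in hypoxia). The label was checked on a marker gene list. CDX2, an intestinal transcription factor, was at 9.65 to 16.8 CPM in RKO and at most 0.0925 CPM in the lung libraries. Only 4 of 14 colon epithelial markers (EPCAM, CDX2, KRT8 and KRT18) passed the filter, and VIL1, CDX1, LGR5 and CEACAM5 had no read in RKO. The summed level of that list was 216 to 220 CPM in normoxia and 121 to 130 CPM in hypoxia, most of it KRT18. None of 8 lung markers, 1 of 7 fibroblast markers (COL1A1), 1 of 5 endothelial markers (VWF) and 1 of 6 immune markers (CD68) passed, and PTPRC, the pan-leukocyte gene, had no read. The summed fibroblast list was under 1.2 CPM in normoxia and at 2.35 and 2.81 CPM in hypoxia, the endothelial list at 0.139 and 0.109 CPM and then 0.844 and 0.748 CPM, and the immune list was at 468 and 498 CPM in normoxia and 638 and 663 CPM in hypoxia, nearly all CD68. These lists were not tested, nor was their part in the results below.

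Hypoxia raised 2415 of the 12817 tested genes (18.8%) and lowered 1930 (15.1%). These called genes passed both an edgeR adjusted p of 0.1 and a 1.5-fold change. In bulk RNA a change in the number of cells that express a gene cannot be told apart from a change per cell. Rises were larger than falls: 376 genes rose and 20 fell more than 4-fold, and 126 rose more than 8-fold while 0 fell that far. The conditions did not overlap for 4517 genes on the higher side (35.2%) and 4495 on the lower side (35.1%), so a lack of overlap alone marked little with 2 libraries a group. An exact permutation test of 2 against 2 libraries cannot give a p under 0.333, and all calls therefore rest on the fit across genes.

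Weakly expressed genes were called higher more often and strongly expressed genes lower more often. Genes were split into 5 equal bins by mean level over the 4 libraries. In the lowest bin (0.261 to 6.59 CPM) 34.6% were called higher and 9.71% lower, and in the highest (from 99.8 CPM) the shares were 9.59% and 19.3%. By length, 22.9% of the shortest bin (up to 1752 bases) and 8.11% of the longest (from 5402 bases) were called lower, against 15.1% and 21.7% called higher. The part of level and length in the calls was not tested. By chromosome the share called higher ran from 10.4% (chromosome 13) to 24.8% (chromosomes 19 and 22), and the share called lower from 10.7% (chromosome 18) to 19.1% (chromosome 21).

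The 3 steepest rises among well-counted genes started from under 1 CPM. PRSS8, a membrane serine protease of epithelia (chromosome 16, 31142754 to 31147151, on GRCh37 as for all gene positions here), had 0.175 and 0.137 CPM in normoxia and 8.57 and 4.31 CPM in hypoxia, a log2 change of 5.34 ± 0.50 (standard error) with adjusted p = 8.97e-05. MYO15B, an unconventional myosin gene, had 0.553 and 0.576 CPM in normoxia and 26.4 and 19.4 CPM in hypoxia (5.33 ± 0.30, adjusted p = 9.62e-06). SYTL2, a RAB27 effector in vesicle transport, had 0.612 and 0.604 CPM in normoxia and 17.7 and 23.1 CPM in hypoxia (5.06 ± 0.30, adjusted p = 1.07e-05). Each of the 3 was under 1 CPM in both normoxia libraries and at least 4 CPM in both hypoxia libraries. HIF1A-AS2, a transcript antisense to the 3′ end of HIF1A, had 0.262 and 0.22 CPM in normoxia and 7.65 and 3.58 CPM in hypoxia (4.53 ± 0.49, adjusted p = 0.000168), and the counting used strand. The others among the 15 steepest were PKD1L2 (4.74), STRC (4.46), CA9, LINC01021 (4.33), MGAT5B (4.29), NDRG1, RINL (4.14), KANK3 (4.08), TP53INP1, BAIAP3 (4.05) and LOC154761 (3.89) on the log2 scale. STRC has a near-identical neighbouring copy, so its level is uncertain.

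5 further called genes had no read in either normoxia library, and they are named here after their values were seen: KRT34 (54 and 49 reads in hypoxia), STAB1 (36 and 48), NEXN-AS1 (31 and 45), DUOXA1 (31 and 34) and TM4SF1-AS1 (23 and 22).

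The deepest falls among well-counted genes were led by HPDL, MIR17HG and DANCR. HPDL, a mitochondrial enzyme of coenzyme Q synthesis (chromosome 1, 45792545 to 45794346), had 21.6 and 23.6 CPM in normoxia and 2.26 and 5.22 CPM in hypoxia (-2.60 ± 0.34, adjusted p = 0.000365). MIR17HG, the host transcript of the miR-17-92 cluster, had 25.7 and 37.5 CPM in normoxia and 2.75 and 9.25 CPM in hypoxia (-2.40 ± 0.43, adjusted p = 0.0018), and its hypoxia replicates differed more than 3-fold. DANCR, a host of small nucleolar RNAs, had 66.1 and 81.5 CPM in normoxia and 14.5 and 15.4 CPM in hypoxia (-2.30 ± 0.18, adjusted p = 4.34e-05). The remaining 12 of the 15 included the nucleolar factors UTP20 (-2.25), RRS1 (-2.06), NOP16 (-2.06) and GPATCH4 (-1.98), the RNase P subunit RPP40 (-1.89), the tRNA-modifying TRMT61A (-2.20) and CTU2 (-1.96), the mitochondrial helicase C10orf2 (-1.99), the splicing factor SFPQ (-1.93), COA7 (-1.92), FDXACB1 (-1.91) and LOC100996579 (-1.87), all as log2 changes.

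HIF binds a core of A or G followed by CGTG, and the start regions of 5 responding genes are shown with that core in capitals, written ACGTG or GCGTG on the printed strand and CACGT or CACGC where it lies on the other strand. Each is 300 bases from RefSeq (GRCh38.p14), 250 before and 50 after the start, printed 5′ to 3′ along the gene. They were chosen as genes whose rise is well known, whether or not the core is present.
CA9: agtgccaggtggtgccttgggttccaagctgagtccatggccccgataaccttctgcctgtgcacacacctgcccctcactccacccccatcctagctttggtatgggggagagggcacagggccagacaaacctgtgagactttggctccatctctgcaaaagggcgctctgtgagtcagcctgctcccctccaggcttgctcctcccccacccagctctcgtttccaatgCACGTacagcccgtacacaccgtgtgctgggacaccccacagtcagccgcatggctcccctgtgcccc
ALDOC: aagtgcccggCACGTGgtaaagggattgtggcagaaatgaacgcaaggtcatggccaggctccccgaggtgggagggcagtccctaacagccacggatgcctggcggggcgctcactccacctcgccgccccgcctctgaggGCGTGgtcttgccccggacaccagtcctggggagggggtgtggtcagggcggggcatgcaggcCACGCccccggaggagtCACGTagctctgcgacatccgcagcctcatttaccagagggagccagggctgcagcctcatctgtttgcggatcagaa
PDK1: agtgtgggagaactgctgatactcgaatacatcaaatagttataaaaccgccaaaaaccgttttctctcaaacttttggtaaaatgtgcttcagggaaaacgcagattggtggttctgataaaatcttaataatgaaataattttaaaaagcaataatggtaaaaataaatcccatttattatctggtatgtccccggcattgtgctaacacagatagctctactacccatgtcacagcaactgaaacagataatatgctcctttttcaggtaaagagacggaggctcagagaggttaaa
MXI1: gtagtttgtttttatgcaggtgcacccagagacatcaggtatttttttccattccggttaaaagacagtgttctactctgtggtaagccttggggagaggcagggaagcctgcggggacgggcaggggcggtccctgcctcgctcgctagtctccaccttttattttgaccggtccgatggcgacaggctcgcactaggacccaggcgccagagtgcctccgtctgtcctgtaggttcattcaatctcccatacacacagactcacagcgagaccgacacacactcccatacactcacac
HK2: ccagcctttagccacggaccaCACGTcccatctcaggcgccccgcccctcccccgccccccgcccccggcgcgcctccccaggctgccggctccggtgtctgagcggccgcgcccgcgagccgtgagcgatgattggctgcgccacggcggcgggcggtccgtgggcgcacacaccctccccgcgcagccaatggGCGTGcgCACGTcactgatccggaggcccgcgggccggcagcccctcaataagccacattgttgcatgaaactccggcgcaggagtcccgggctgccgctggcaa
The CA9 window (chr9:35673678-35673977, plus strand) held 1 core, 18 bases before the start. ALDOC (chr17:28576846-28577145, minus strand) held 5, of which 2 form a palindromic CACGTG 240 bases upstream and the nearest lay 28 bases upstream. HK2 (chr2:74833877-74834176, plus strand) held 3, at 229, 55 and 48 bases upstream, counted to the first printed base of each match. PDK1 (chr2:172555123-172555422, plus strand) and MXI1 (chr10:110207355-110207654, plus strand) held 0 in these windows. Only 1 window was kept per gene symbol, so any other start of a gene was not searched, here or in the shares below.

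Across the 10040 tested genes with such a window, the core was not more common in genes that rose. ACGTG on either strand stood in 23.4% of 1815 called higher, 31.2% of 1527 called lower and 27.1% of all tested windows, against 21.6% of all 27305 windows in the table. GCGTG stood in 44.0%, 58.8%, 51.7% and 36.3% in the same order. The palindrome CACGTG, which contains ACGTG on both strands and is also the MYC binding motif, stood in 8.21% of called higher, 13.2% of called lower and 10.4% of all tested windows. Ribosome biogenesis genes had it in 36.6% of 71 windows. HIF target genes had ACGTG in 67.9% of 28 windows, and ACGTG outside the palindrome in 53.6% against 18.8% of all tested windows, and these genes are in part known as HIF targets because of such sites.

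Of 18 tested HIF regulators 4 were called higher (22.2%) and 2 lower (11.1%), shares near the 18.8% and 15.1% of all tested genes. Their median log2 change was 0.164 against 0.00729 over all tested genes. Both counts moved with single libraries left out, where the median lay at 0.124 to 0.222. HIF1A (chromosome 14, 62162119 to 62214977) had 174 and 160.4 CPM in normoxia and 46 and 53.3 CPM in hypoxia, a change of -1.75 ± 0.16 (adjusted p = 7.71e-05). EPAS1, which encodes HIF2A, went the other way with 10.3 and 7.80 CPM in normoxia and 26.6 and 17.7 CPM in hypoxia (1.29 ± 0.25, adjusted p = 0.00281). Neither gene's conditions overlapped. EGLN1, the main oxygen-sensing prolyl hydroxylase, had 86.3 and 59.6 CPM in normoxia and 176 and 146 CPM in hypoxia (1.15 ± 0.19, adjusted p = 0.00135). The partner ARNT was not called (0.52 ± 0.18, adjusted p = 0.0421), since it missed the fold minimum, and was called without hypoxia replicate 2 (0.76). EGLN3 stayed below the filter with 4 to 6 reads per library, and the remaining calls were CITED2 (0.62) and P4HTM (0.95) higher and ARNT2 (-0.70) lower, named after their values were seen.

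HIF target genes rose together. Of 37 tested 28 were called higher (75.7%) and 0 lower, with a median log2 change of 1.19. CA9, the membrane carbonic anhydrase, had 4.08 and 2.03 CPM in normoxia and 56.2 and 77.2 CPM in hypoxia (4.45 ± 0.31, adjusted p = 3.74e-05). NDRG1, a stress-responsive growth regulator, had 118 and 32.1 CPM in normoxia and 1591 and 1315 CPM in hypoxia (4.28 ± 0.48, adjusted p = 0.000188). In both, the hypoxia libraries stood far above the normoxia libraries, and for NDRG1 the normoxia replicates themselves differed more than 3-fold. MIR210HG, the host of the hypoxia microRNA miR-210, had 5.16 and 2.58 CPM in normoxia and 42.3 and 37.9 CPM in hypoxia (3.38 ± 0.29, adjusted p = 7.02e-05). ANKRD37, a small ankyrin repeat gene, had 3.73 and 2.50 CPM in normoxia and 37.9 and 15.5 CPM in hypoxia (3.10 ± 0.39, adjusted p = 0.000334). The vasoactive peptide gene ADM rose by 1.96 ± 0.20 and VEGFA, the angiogenic growth factor, by 1.19 ± 0.18 (adjusted p = 0.000122 and 0.000745), with no overlap in either. BNIP3, a mitophagy receptor that other hypoxic cells raise, had 11 to 31 reads per library and was not tested. Of the 9 tested targets that were not called 4 had estimates below 0, among them STC2 (-0.52), PPP1R3C (-0.89) and PPFIA4 (-0.03).

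**Figure D1:**
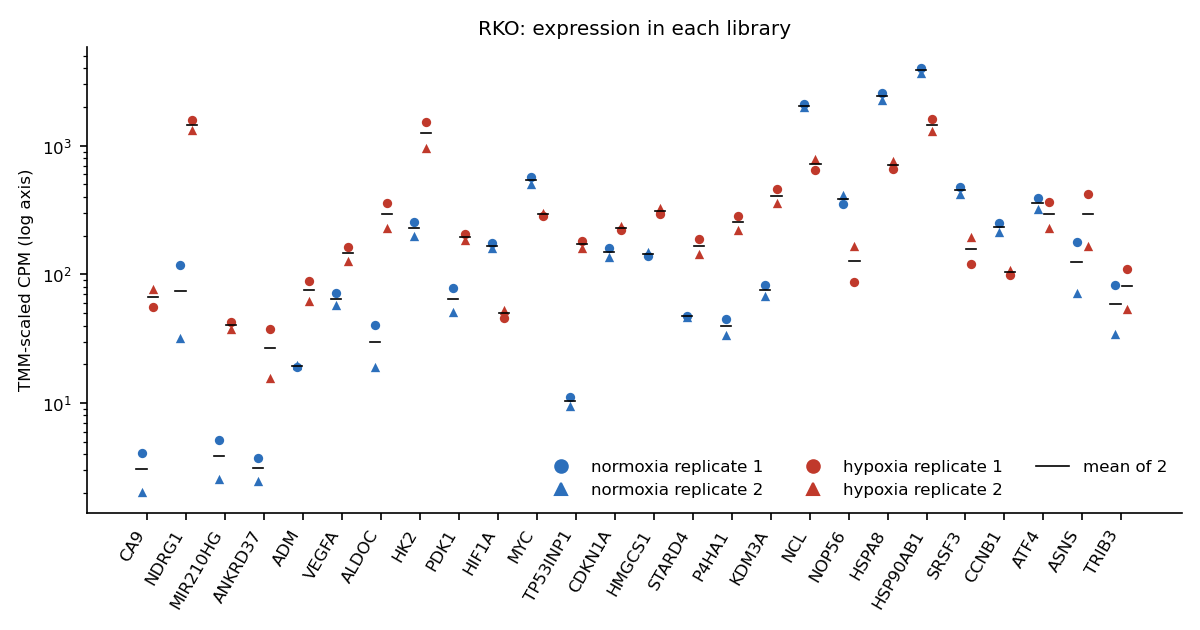
TMM-scaled CPM (log y axis) of 26 genes in each of the 4 RKO libraries, normoxia in blue and hypoxia in red, replicate 1 as circles and replicate 2 as triangles, with a bar at the mean of the 2 replicates. CA9 moves from 4.08 and 2.03 to 56.2 and 77.2 CPM. ATF4 and ASNS differ between replicate 1 and replicate 2 about as much as between conditions or more, and TRIB3 differs more between replicates than between conditions.

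Most glucose uptake and glycolysis genes rose. Of 34 tested 20 were called higher and 2 lower, with a median of 0.746. The transporter SLC2A1 had 110.0 and 111 CPM in normoxia and 387 and 345 CPM in hypoxia (1.73 ± 0.15, adjusted p = 7.71e-05). HK2, which phosphorylates glucose (chromosome 2, 75059782 to 75120481), had 256 and 200.3 CPM in normoxia and 1538 and 957 CPM in hypoxia (2.45 ± 0.24, adjusted p = 0.000105). Both were higher in each hypoxia library than in either normoxia library. The aldolase ALDOC (chromosome 17, 26900133 to 26903951) had 40.5 and 19.1 CPM in normoxia and 357 and 228 CPM in hypoxia (3.29 ± 0.33, adjusted p = 0.000116). PFKFB4, which makes the activator of phosphofructokinase, had 40.9 and 27.3 CPM in normoxia and 308 and 249 CPM in hypoxia (3.03 ± 0.22, adjusted p = 3.91e-05). LDHD, the mitochondrial D-lactate dehydrogenase, was low but rose by 3.54 ± 0.36 (adjusted p = 0.000122). PGK1 rose by 1.85 ± 0.21 and PDK1, the kinase that switches off pyruvate dehydrogenase, by 1.60 ± 0.20 (adjusted p = 0.000181 and 0.000314). LDHA, which makes lactate, rose less, from 1365 and 1061 CPM to 1952 and 1815 CPM (0.63 ± 0.19, adjusted p = 0.0207), and lost its call without normoxia replicate 2 (0.46). GAPDH (0.17 ± 0.22), and TPI1 (-0.04), ENO1 (-0.10) and PKM (0.02), named after their values were seen, were not called, and LDHB (-0.79) and the monocarboxylate carrier SLC16A1 (-0.61) were the 2 called lower. These genes have processed pseudogenes, so reads that match several places may be missing from their counts.

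Of 24 genes of the TCA cycle and pyruvate oxidation 1 was called higher and 5 lower (20.8%, median -0.362), and of 80 oxidative phosphorylation genes 1 higher and 17 lower (21.2%, median -0.341). With no fold minimum 14 of 24 and 38 of 80 were called lower, against 2938 of all 12817 tested genes. Estimates lay below 0 for 19 of 24 and 70 of 80, against 6332 of 12817, so the falls were broad but shallow. At the 1.5-fold minimum both lower shares lay near the 15.1% of all tested genes. Without normoxia replicate 2 the lower calls were 8 and 26. DLAT, a pyruvate dehydrogenase subunit, had 73.1 and 71.6 CPM in normoxia and 31.3 and 40.1 CPM in hypoxia (-1.02 ± 0.17, adjusted p = 0.00129). Fumarase (FH) fell by 0.81 ± 0.15 and the isocitrate dehydrogenase subunit IDH3A by 0.69 ± 0.15 (adjusted p = 0.00243 and 0.00439), and ME2, a malic enzyme named after its value was seen, was at -0.76. Citrate synthase (CS) fell by 0.65 ± 0.15 (adjusted p = 0.00711), but was not called when scaled by library size alone (-0.57) or without hypoxia replicate 2 (-0.57). IDH2, the NADP-dependent mitochondrial isocitrate dehydrogenase, was the one call upward, with 40.5 and 32.9 CPM in normoxia and 132 and 102 CPM in hypoxia (1.68 ± 0.18, adjusted p = 0.000168). In the respiratory chain the ATP synthase subunit genes ATP5G1 (-1.20 ± 0.19) and ATP5G3 (-0.90 ± 0.16) and cytochrome c (CYCS, -0.94 ± 0.15) fell most, COX4I1 was at -0.04 ± 0.15 (adjusted p = 0.876), and SDHB at -0.47 ± 0.16 (adjusted p = 0.0367). NDUFA4L2, a subunit paralogue known from hypoxia, had only 0.583 and 0.741 CPM in normoxia and 1.69 and 1.38 CPM in hypoxia (1.21 ± 0.39, adjusted p = 0.0305), and was not called by DESeq2, without normoxia replicate 1 (1.05) or without hypoxia replicate 1 (1.09). COX4I2, the hypoxic isoform of COX4I1, had no read in any RKO library.

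Ribosome production had the highest share of falling genes among the lists examined. Of 85 ribosome biogenesis genes 78 were called lower (91.8%) and 0 higher, with a median of -1.13 on the log2 scale. UTP20, a subunit of the small-subunit processome (chromosome 12, 101673905 to 101780397), had 120.2 and 126 CPM in normoxia and 20.4 and 31.2 CPM in hypoxia (-2.25 ± 0.20, adjusted p = 7.71e-05). NCL (nucleolin) had 2116 and 1988 CPM in normoxia and 652 and 789.8 CPM in hypoxia (-1.51 ± 0.18, adjusted p = 0.000246). NOP56, a core protein of box C/D small nucleolar particles, had 352 and 415 CPM in normoxia and 87.6 and 166 CPM in hypoxia (-1.60 ± 0.26, adjusted p = 0.00102). Every hypoxia library lay below both normoxia libraries for these 3 genes. RRP9 (-1.58 ± 0.16), the RNA polymerase I subunit POLR1B (-1.36 ± 0.20) and the methyltransferase FBL (-0.82 ± 0.16) fell as well (adjusted p = 0.000116, 0.000745 and 0.00279). The count of lower calls was 75 to 78 with any 1 library left out and 77 when scaled by library size alone.

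The ribosomal protein genes did not follow. Of 82 cytosolic ribosomal protein genes 1 was called higher and 5 lower, with a median of -0.11 that was 0.0245 without hypoxia replicate 2 and 0.0223 without normoxia replicate 1. The lower calls were 3 without normoxia replicate 1 and 3 when scaled by library size alone. The calls were led by paralogues, with RPL22L1 (-0.99 ± 0.17) and RPL26L1 (-0.92 ± 0.18) lower and RPS27L, a p53-inducible one, higher (0.70 ± 0.15). RPL21 (-0.85), RPL6 (-0.63) and RPL7L1 (-0.69), named after their values were seen, were the others, and RPL21 and RPL6 have many pseudogene copies. Mitochondrial ribosomal protein genes fell, with 49 of 77 called lower (63.6%), 0 higher and a median of -0.682. MRPL1 had 30.1 and 25.1 CPM in normoxia and 8.16 and 11.2 CPM in hypoxia (-1.51 ± 0.22, adjusted p = 0.000639), and MRPL20 (-1.48 ± 0.18) and MRPL3 (-1.33 ± 0.16) followed it. Of 23 tRNA synthetase genes 9 were called lower and 1 higher (median -0.393), led by the complex subunits AIMP2 (-1.63 ± 0.22) and EEF1E1 (-1.21 ± 0.18) and by FARSB (-1.27 ± 0.16), while AARS (0.81, named after its value was seen) was the call upward.

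MYC itself (chromosome 8, 128748315 to 128753680) had 576 and 500.3 CPM in normoxia and 286 and 301 CPM in hypoxia (-0.87 ± 0.16, adjusted p = 0.00193). Of 12 genes of the MYC network 5 were called higher and 1 lower (median 0.418). MXD3 had 7.54 and 8.70 CPM in normoxia and 33 and 23.6 CPM in hypoxia (1.80 ± 0.22, adjusted p = 0.00031), and MXD4 had 22.8 and 21.5 CPM in normoxia and 68.5 and 60.3 CPM in hypoxia (1.54 ± 0.17, adjusted p = 0.000166). MLXIPL, the glucose-responsive factor ChREBP, rose by 2.54 ± 0.25 (adjusted p = 0.000116), and MXD1, named after its value was seen, was at 0.69. MXI1, a known HIF target, rose from 52.2 and 31.1 CPM to 100.2 and 57.6 CPM (0.92 ± 0.28, adjusted p = 0.0238), a call that was lost without hypoxia replicate 1 (0.51), and without that library 3 of the list were called higher. MAX was not called (-0.28 ± 0.16, adjusted p = 0.185).

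Genes of nucleotide and methyl donor synthesis fell as well. Of 30 one-carbon and nucleotide synthesis genes 18 were called lower and 1 higher, with a median of -0.673. MAT2A, which makes S-adenosylmethionine, had 348 and 409.9 CPM in normoxia and 105 and 171 CPM in hypoxia (-1.46 ± 0.22, adjusted p = 0.000751). Spermidine synthase (SRM) fell by 1.51 ± 0.18 and the nucleoside diphosphate kinase NME1 by 1.33 ± 0.17 (adjusted p = 0.000259 and 0.000353). CAD, the first enzyme of pyrimidine synthesis, fell by 0.59 ± 0.19 (adjusted p = 0.0292), close to the fold threshold, and was not called under 9 of 16 alternatives.

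Chaperones fell almost as a block. Of 28 cytosolic and mitochondrial chaperone genes 25 were called lower (89.3%) and 0 higher, with a median of -0.947. HSPA8, the constitutive HSP70 (chromosome 11, 122928200 to 122933043), had 2548 and 2281 CPM in normoxia and 659 and 763 CPM in hypoxia (-1.76 ± 0.18, adjusted p = 0.000128). HSP90AB1 had 4005 and 3688 CPM in normoxia and 1607 and 1300 CPM in hypoxia (-1.40 ± 0.19, adjusted p = 0.000468). The mitochondrial pair HSPD1 and HSPE1 fell by 1.03 ± 0.18 and 1.5 ± 0.17 (adjusted p = 0.00158 and 0.000193). With any 1 library left out 20 to 26 were lower. This was not shared by the list of folding and unfolded protein response genes of the endoplasmic reticulum, which is not limited to chaperones. Of its 27 genes 6 were called higher (22.2%) and 1 lower (3.7%), against 18.8% and 15.1% of all tested genes. The median of 0.0781 crossed 0 when single libraries were left out (-0.0253 to 0.0958). HSPA5 was at 0.41 ± 0.18 (adjusted p = 0.0975) and XBP1 at 0.27 ± 0.25 (adjusted p = 0.411), neither called, while P4HB, a disulfide isomerase and subunit of collagen prolyl hydroxylase, had 548 and 604 CPM in normoxia and 1079 and 1165 CPM in hypoxia (0.96 ± 0.16, adjusted p = 0.00141), and EDEM1 (0.91 ± 0.15) and ERO1LB (0.81 ± 0.19) rose. The call downward was the translocon subunit SEC61B (-0.69, named after its value was seen).

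Splicing factors fell, and 3 of the CLK kinases that phosphorylate them rose. Of 34 genes 18 were called lower (52.9%) and 3 higher, with a median of -0.622, and the 3 were CLK1, CLK3 (1.01) and CLK4 (0.60). SRSF3 had 474 and 423 CPM in normoxia and 119.5 and 195 CPM in hypoxia (-1.51 ± 0.22, adjusted p = 0.000604), and SRSF2 had 339 and 372 CPM in normoxia and 85.6 and 147 CPM in hypoxia (-1.61 ± 0.23, adjusted p = 0.000552). SRSF8 fell by 1.37 ± 0.29 (adjusted p = 0.00463). CLK1, which activates SR proteins, had 91 and 108 CPM in normoxia and 271 and 172 CPM in hypoxia (1.16 ± 0.21, adjusted p = 0.00203).

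Targets of p53 and inhibitors of cyclin-dependent kinases rose. Of 31 tested 22 were called higher (71.0%) and 0 lower, with a median of 0.808, and 21 or 22 were higher with any library left out. TP53INP1, which promotes p53 activity and autophagy (chromosome 8, 95938200 to 95961615), had 11.1 and 9.53 CPM in normoxia and 183 and 159.9 CPM in hypoxia (4.05 ± 0.18, adjusted p = 2.08e-06), with replicates that differed far less than the conditions. DDB2, a damage recognition factor, had 29.3 and 35.2 CPM in normoxia and 132 and 111 CPM in hypoxia (1.92 ± 0.17, adjusted p = 7.71e-05). CDKN2D, an inhibitor of CDK4 and CDK6, rose by 2.00 ± 0.28 (adjusted p = 0.000519), and GDF15, a secreted stress factor, by 1.45 ± 0.20 (adjusted p = 0.000431). MDM2 rose by 0.75 ± 0.15 (adjusted p = 0.00368), and CDKN1A, which encodes p21, by 0.63 ± 0.16 (adjusted p = 0.00971), which fell under the fold threshold without normoxia replicate 2 (0.51).

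Cell cycle genes fell in part. Of 47 DNA replication genes 17 were called lower (36.2%) and 0 higher (median -0.333). GINS3, a subunit of the replicative helicase, had 40.3 and 40.0 CPM in normoxia and 12.3 and 18.6 CPM in hypoxia (-1.38 ± 0.21, adjusted p = 0.000833), the MCM helicase genes MCM5 (-1.07 ± 0.15), MCM7 (-1.05 ± 0.16) and MCM2 (-0.72 ± 0.15) fell, and CDC6 (-0.44 ± 0.15, adjusted p = 0.0371) and E2F1 (0.13 ± 0.17, adjusted p = 0.569) were not called. Of 36 mitosis genes 4 were called lower and 1 higher (median -0.117), shares below those of all tested genes. CCNB1 (cyclin B1) had 251 and 213 CPM in normoxia and 99 and 109 CPM in hypoxia (-1.16 ± 0.16, adjusted p = 0.000463), and PLK1 (-0.97 ± 0.17), CDC20 (-0.89 ± 0.15) and, named with NUSAP1 after their values were seen, AURKA (-0.59) fell, NUSAP1 rose (0.60), while the proliferation marker MKI67 was at 0.13 ± 0.17 (adjusted p = 0.565) with overlapping libraries. Of 32 DNA repair genes 3 were called lower (9.38%) and 1 higher (3.12%), also below the shares of all tested genes (median -0.12). FANCF (-1.26 ± 0.23), NBN (-0.90 ± 0.14) and XRCC3 (-0.63, named after its value was seen) fell, FANCL rose (0.71 ± 0.17), and BRCA1 (0.09 ± 0.15, adjusted p = 0.682) was not called.

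Cholesterol synthesis genes rose, and genes of fatty acid synthesis moved both ways. Of 33 sterol and fatty acid genes 17 were called higher (51.5%) and 3 lower, with a median of 0.60. HMGCS1, which makes HMG-CoA, had 138 and 148 CPM in normoxia and 294 and 327 CPM in hypoxia (1.12 ± 0.15, adjusted p = 0.000468). STARD4, a sterol carrier, had 47.7 and 47 CPM in normoxia and 189 and 145 CPM in hypoxia (1.82 ± 0.17, adjusted p = 9.02e-05). The sterol sensor INSIG1 rose by 1.14 ± 0.15, the demethylase MSMO1 by 1.42 ± 0.15 and ACSS2, which makes acetyl-CoA from acetate, by 1.56 ± 0.17 (adjusted p = 0.000385, 0.000166 and 0.000168). FASN, the fatty acid synthase, was at -0.06 ± 0.22 (adjusted p = 0.842) and was not called. The desaturase SCD rose (0.64), and the 3 lower calls were the fatty acid enzymes ACACA (-0.78) and ELOVL6 (-1.0) and the mevalonate enzyme PMVK (-0.77), all 4 named after their values were seen. Of 20 lipid droplet genes 9 were called higher and 2 lower (median 0.281), or 5 and 2 without hypoxia replicate 1. PLIN2, a droplet coat protein, had 63.7 and 50.6 CPM in normoxia and 190.2 and 108 CPM in hypoxia (1.39 ± 0.24, adjusted p = 0.0015). LPIN3 (1.54 ± 0.19) and CPT1B (1.77 ± 0.27) rose, and HILPDA, an inhibitor of lipolysis, rose by 1.14 ± 0.29 (adjusted p = 0.0103) but was not called without hypoxia replicate 1 (0.52). FABP5, a fatty acid carrier, had 257 and 235 CPM in normoxia and 68.5 and 81.5 CPM in hypoxia (-1.71 ± 0.16, adjusted p = 9.15e-05), and the other gene called lower was GPAM (-1.42), which starts triglyceride synthesis.

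Genes of nutrient signalling and self-digestion were more often called higher than lower. Of 24 genes around mTOR, FOXO and TXNIP 9 were called higher and 2 lower, DEPTOR (-1.12) and TRIB1 (-1.23, both named after their values were seen), with a median of 0.123. CCNG2, a FOXO target, had 24.4 and 14.4 CPM in normoxia and 149 and 112 CPM in hypoxia (2.75 ± 0.25, adjusted p = 7.71e-05). PIK3IP1, an inhibitor of PI3K, rose by 2.86 ± 0.32 and SESN3, an inhibitor of mTORC1, by 2.90 ± 0.38 (adjusted p = 0.000196 and 0.000398). TXNIP, which restrains glucose uptake, had 178 and 96.9 CPM in normoxia and 498 and 337 CPM in hypoxia (1.60 ± 0.27, adjusted p = 0.00136). DDIT4, an mTORC1 inhibitor, had 57.9 and 14.1 CPM in normoxia and 189.8 and 105 CPM in hypoxia (2.04 ± 0.49, adjusted p = 0.00836), with a 4-fold difference between its normoxia libraries. FOXO3 rose by 0.80 ± 0.23 (adjusted p = 0.0207) and was not called without hypoxia replicate 1 (0.42). Of 46 autophagy and lysosome genes 14 were called higher and 1 lower, ATG3 (-0.84, named after its value was seen), with a median of 0.273. GABARAPL2, which builds autophagosomes, had 65 and 53.6 CPM in normoxia and 206 and 168 CPM in hypoxia (1.65 ± 0.17, adjusted p = 0.000132), and WIPI1 (1.45 ± 0.22) and the initiating kinase ULK1 (0.98 ± 0.19) rose, but the receptor SQSTM1 (-0.17 ± 0.15, adjusted p = 0.398) and the protease CTSD (0.16 ± 0.16, adjusted p = 0.458) were not called. NEU1, a lysosomal sialidase, rose by 1.71 ± 0.18 (adjusted p = 0.000132), and the deposited table places it on an alternate copy of chromosome 6, so its count depends on how such copies were handled.

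Of 34 collagen and matrix genes 14 were called higher (41.2%) and 0 lower (median 0.362). P4HA1, a catalytic subunit of collagen prolyl hydroxylase, had 45.3 and 33.9 CPM in normoxia and 284 and 222 CPM in hypoxia (2.68 ± 0.20, adjusted p = 4.08e-05), and P4HA2 had 38.6 and 31.3 CPM in normoxia and 122 and 124 CPM in hypoxia (1.82 ± 0.16, adjusted p = 7.71e-05). PLOD1, a lysyl hydroxylase, rose by 0.92 ± 0.15 (adjusted p = 0.00122). The structural genes COL13A1 (3.11 ± 0.32) and COL7A1 (2.02 ± 0.26) rose from low levels. Of 28 adhesion and junction genes 6 were called higher (21.4%) and 1 lower (3.57%), against 18.8% and 15.1% of all tested genes. The median was 0.0368 (-0.0336 to 0.0874 with single libraries left out). PRSS8 led the rises, with CDH3 at 2.76, KRT18 was the one called lower (-1.05 ± 0.15) and EPCAM was not called (0.13 ± 0.27, adjusted p = 0.726). CDH1 (E-cadherin) had 2 to 4 reads per library. Of 12 mesenchymal genes 3 were called higher, ACTA2 (1.46 ± 0.31), CTGF (1.13 ± 0.18) and CYR61 (0.92 ± 0.16), and 0 lower (median 0.253). VIM (0.05 ± 0.22, adjusted p = 0.872) and ZEB1 (-0.02 ± 0.17, adjusted p = 0.935) were not called.

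Of 27 JmjC demethylases and related dioxygenases, which use oxygen, 6 were called higher (22.2%) and 5 lower (18.5%), near the shares of all tested genes (median 0.191). KDM3A, an H3K9 demethylase, had 82.6 and 68.2 CPM in normoxia and 462 and 357 CPM in hypoxia (2.44 ± 0.19, adjusted p = 4.08e-05), KDM4B (1.03 ± 0.19), KDM5C (0.97 ± 0.18) and HR (1.59 ± 0.23) rose, and MINA, a nucleolar hydroxylase, fell (-1.54 ± 0.21), as did JMJD8 (-1.42) and JMJD4 (-1.38), named after their values were seen. Without hypoxia replicate 2 the higher calls were 10, and without hypoxia replicate 1 the lower calls were 3. Of 35 immediate-early and MAPK feedback genes 10 were called higher (28.6%) and 6 lower (17.1%), against 18.8% and 15.1% of all tested genes (median 0.142). ERRFI1, an inhibitor of EGFR, had 68.5 and 24.2 CPM in normoxia and 464 and 299 CPM in hypoxia (3.04 ± 0.40, adjusted p = 0.000385), FOSL2 (2.52 ± 0.24) and JUND (1.79 ± 0.16) rose, and FOS (-0.48 ± 0.26, adjusted p = 0.171) and DUSP6 (0.57 ± 0.17, adjusted p = 0.0217) were not called, DUSP6 because of the fold minimum. Of 34 interferon and MHC class I genes 9 were called higher and 3 lower (median 0.426). ISG20 (1.55 ± 0.23), IRF7 (1.26 ± 0.30) and HLA-B (1.18 ± 0.16) rose, B2M (0.43 ± 0.16, adjusted p = 0.0538) did not pass, and HLA-B is placed on an alternate copy of chromosome 6. The lower calls in that list, IFIT5 (-0.79), NLRC5 (-0.63) and TAP2 (-0.61), named after their values were seen, were 0 without hypoxia replicate 1, 1 without normoxia replicate 2 and 1 when scaled by library size alone.

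Of 14 calcium channel and stanniocalcin genes 5 were called higher and 0 lower (median 0.214). ITPR1, the calcium release channel of the endoplasmic reticulum, had 40.2 and 22 CPM in normoxia and 342 and 218 CPM in hypoxia (3.17 ± 0.29, adjusted p = 8.65e-05), ORAI3 (2.22 ± 0.22) and ATP2B4 (1.71 ± 0.19) rose, as did ATP2A1 (0.78) and ITPR3 (0.64), named after their values were seen, but STC1 was barely counted (0.66 ± 0.49, adjusted p = 0.313), and without normoxia replicate 1 the higher calls were 3. Of 16 BCL2 family genes 3 were called higher (18.8%, as over all tested genes) and 1 lower (6.25%, against 15.1%). The median was 0.0562 (-0.0584 to 0.268 with single libraries left out). BMF, a pro-apoptotic member, had 1.31 and 0.686 CPM in normoxia and 11.7 and 9.45 CPM in hypoxia (3.41 ± 0.35, adjusted p = 0.000122), BCL2A1 rose (0.72 ± 0.25, not called without normoxia replicate 2 at 0.36), BCL2 rose (0.64, named after its value was seen), BCL2L12 fell (-0.75 ± 0.15), and BCL2L1 was not called (0.11 ± 0.18, adjusted p = 0.676). Without normoxia replicate 2, 1 of that family was called higher and 2 lower. Of 28 NRF2 targets 4 were called higher (14.3%) and 3 lower (10.7%), below the shares of all tested genes (median -0.202). HMOX1, the heme oxygenase, had 58 and 53.5 CPM in normoxia and 137 and 231 CPM in hypoxia (1.72 ± 0.22, adjusted p = 0.00037). OSGIN1 was higher (2.05 ± 0.21), TALDO1 (-0.76 ± 0.15), TXN (-0.72) and GCLC (-0.68) were lower and NQO1 was not called (-0.06 ± 0.15, adjusted p = 0.772). SLC48A1 (0.68) and BLVRB (0.68), which like HMOX1 handle heme, were the other 2 called higher, named with TXN and GCLC after their values were seen, and without normoxia replicate 2 the lower calls were 5.

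Of 12 iron handling genes 3 were called higher (25.0%) and 1 lower (8.33%), against 18.8% and 15.1% of all tested genes. The median was -0.000726 (-0.131 to 0.118 with single libraries left out). CP, the ferroxidase ceruloplasmin, had 0.0874 and 0.0549 CPM in normoxia and 5.54 and 4.91 CPM in hypoxia (6.14 ± 0.47, adjusted p = 4.08e-05), from 3 and 2 reads to 216 and 174. It was too weakly counted for the naming rule and was chosen after its values were seen. STEAP2 rose (0.79 ± 0.15), HFE (0.66 ± 0.21) and TFR2 (-0.73 ± 0.22) each lost their call in 2 of the 4 fits without a library (HFE at 0.54 without normoxia replicate 1 and 0.45 without hypoxia replicate 2, TFR2 at -0.48 without normoxia replicate 2 and -0.47 without hypoxia replicate 1), and the transferrin receptor TFRC, counted among the HIF targets, rose by 0.70 ± 0.18 (adjusted p = 0.0113) but was not called without normoxia replicate 2 (0.50). Of 16 clock genes 2 were called higher (12.5%, below the share of all tested genes) and 0 lower (median 0.267). These were NFIL3, a repressor, with 31.4 and 22.8 CPM in normoxia and 131 and 69.5 CPM in hypoxia (1.89 ± 0.27, adjusted p = 0.000614), and PER1 (0.83 ± 0.26, adjusted p = 0.0267), which was not called without hypoxia replicate 1 (0.33). PER2 (-0.53 ± 0.22, adjusted p = 0.0847) and NR1D1 (-0.19 ± 0.22, adjusted p = 0.543) were not called. The clock list had 5 higher calls without hypoxia replicate 2 and 1 without hypoxia replicate 1, and the iron list 1 higher and 3 lower without hypoxia replicate 2.

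Of 27 small RNA host genes 15 were called lower (55.6%) and 2 higher (median -0.785). MIR17HG and DANCR led the falls, MIR210HG and MIR155HG (0.80, named after its value was seen) were the rises, while GAS5 was not called (-0.30 ± 0.19, adjusted p = 0.241). Of 44 histone genes seen in poly(A)+ RNA 20 were called lower and 3 higher (median -0.906), but without normoxia replicate 1 only 3 were lower (median -0.482) and without hypoxia replicate 2 only 11 (-0.586). The 3 higher were H1F0 (0.63), HIST2H2BE (0.80), both named after their values were seen, and HIST1H2BD, and 0 were higher without normoxia replicate 2 or hypoxia replicate 1. H2AFZ, a replication-independent variant, fell by 0.86 ± 0.16 (adjusted p = 0.00203), HIST1H2BH was at -1.12 ± 0.29 (not called without normoxia replicate 1, -0.92) and HIST1H2BD at 0.87 ± 0.30 (not called without normoxia replicate 2, 0.58, or hypoxia replicate 1, 0.67).

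In the lists above, calls in 1 direction that numbered at most 2 varied between 0 and 3 with single libraries left out, except where given.

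**Figure D2:**
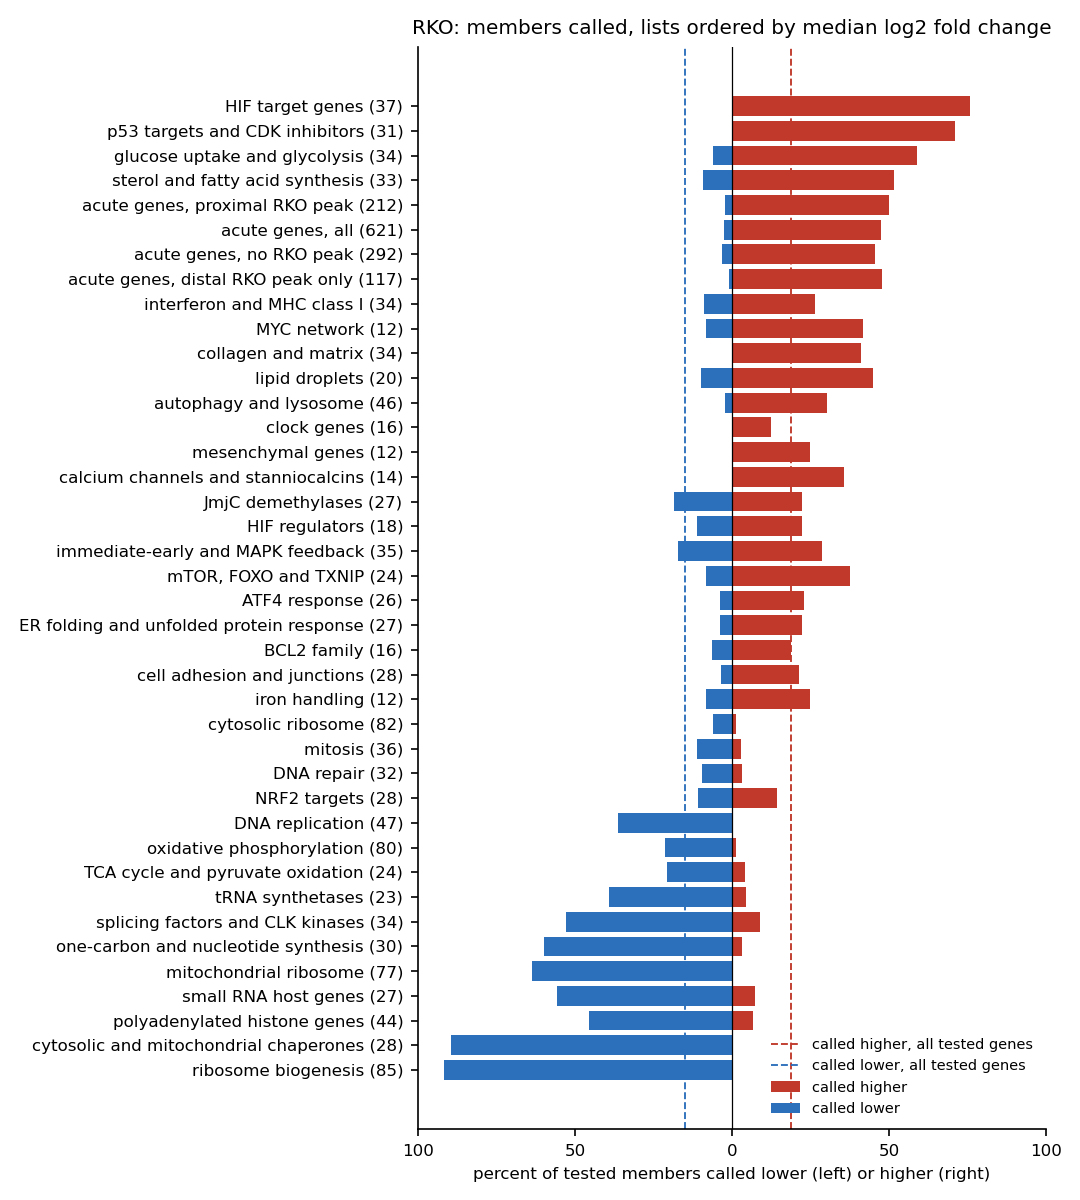
Percent of tested members called higher (red, right) or lower (blue, left) in hypoxic RKO for the 36 gene lists and the 4 groupings of acutely transactivated genes, ordered by median log2 fold change, with the number tested in parentheses and dashed lines at the shares of all tested genes (18.8% and 15.1%). HIF targets, p53 targets and glycolysis stand at the top, and ribosome biogenesis (91.8% lower) and chaperones (89.3% lower) at the bottom.

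The ATF4 list, genes of amino acid supply and the integrated stress response, differed by replicate number more than by oxygen. Of 26 tested 6 were called higher and 1 lower (median 0.109). ASNS, asparagine synthetase, had 178 and 72.2 CPM in normoxia and 420.0 and 166 CPM in hypoxia, TRIB3, a pseudokinase, had 83.3 and 34.3 CPM in normoxia and 109.9 and 53.8 CPM in hypoxia, and ATF4 had 391 and 324 CPM in normoxia and 362 and 230.4 CPM in hypoxia. In each of these replicate 1 was above replicate 2 within both conditions, and the conditions overlapped. ASNS was called (1.23 ± 0.43, adjusted p = 0.0418), TRIB3 (0.48 ± 0.38, adjusted p = 0.344) and ATF4 (-0.27 ± 0.21, adjusted p = 0.338) were not. DDIT3, which encodes CHOP, rose by 1.30 ± 0.37 (adjusted p = 0.0183) and ATF3 by 2.02 ± 0.55 (adjusted p = 0.0151), and neither was called by DESeq2, nor ASNS. Without hypoxia replicate 1 the estimates of ASNS and DDIT3 were 0.45 and 0.47 and 1 member of the list was called higher, and without normoxia replicate 1 there were 13. Without normoxia replicate 2 the calls were 3 higher and 4 lower, and without hypoxia replicate 2 they were 10 and 0. The member called lower with all libraries was the glutamine transporter SLC1A5 (-0.63, named after its value was seen).

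Replicate 1 was above replicate 2 in both conditions for 23 of the 26 ATF4 list genes (88.5%), for 78 of 82 cytosolic ribosomal protein genes (95.1%) and for 34 of 44 histone genes (77.3%), against 33.4% of all tested genes. For ribosome biogenesis the share was 10.6%, for p53 targets 29.0% and for HIF targets 67.6%. Glucose uptake and glycolysis genes, at 26 of 34 (76.5%), stood near the histone genes. Nothing in the sample descriptions ties equal replicate numbers to a shared culture or day, and the part of the replicate number in these results was not tested.

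**Figure D3:**
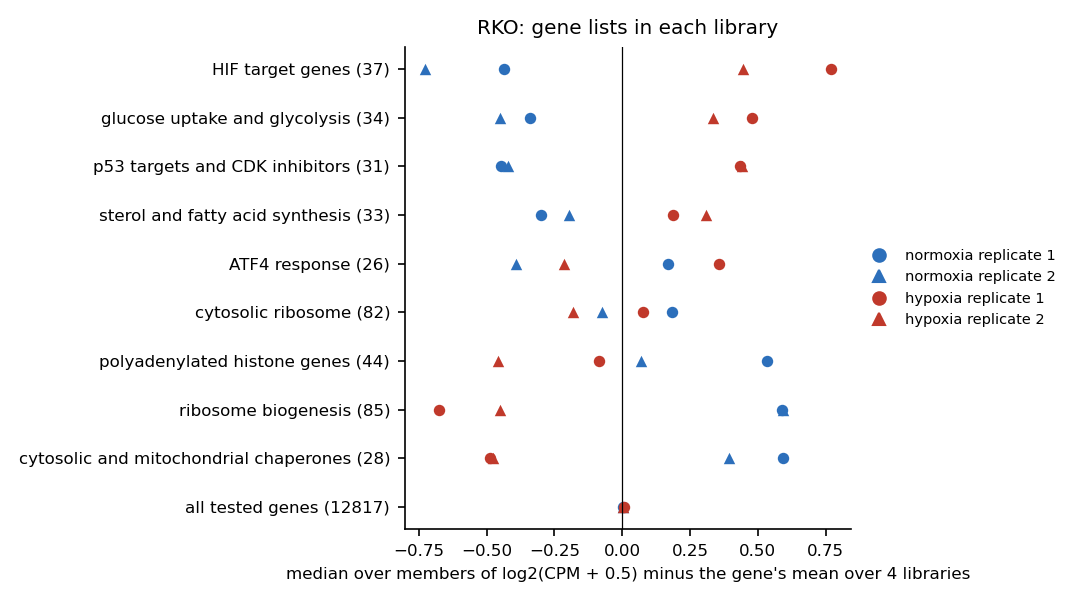
Median over the members of 9 lists, and over all 12817 tested genes, of log2(CPM + 0.5) minus each gene's mean over the 4 libraries (x axis), normoxia in blue, hypoxia in red, replicate 1 as circles and replicate 2 as triangles. HIF targets, p53 targets, ribosome biogenesis and chaperones separate by condition, and the ATF4 list lies at 0.167 and 0.356 in the replicate 1 libraries against -0.39 and -0.214 in replicate 2.

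The study lists 825 genes that were transactivated after a short hypoxia in HCT116, another colon line, by nascent transcription, and marks which of them have a HIF1A peak in RKO. This list was not chosen on the RKO libraries, though the peaks come from the same line. Of the 621 tested in RKO 295 were called higher (47.5%) and 15 lower after 24 h, with a median of 0.577. By peak, 106 of 212 genes with a proximal RKO peak, 56 of 117 with only a distal one and 133 of 292 with none were called higher, with medians of 0.586, 0.538 and 0.563. The 3 medians differed by less than 0.05, but they cover tested genes only. The expression filter had removed 8 of 220, 19 of 136 and 128 of 420 counted genes of these groups, most often those without a peak. ACGTG stood in 53.8% of the 182 promoter windows of the first group and in 32.9% of the 234 of the last.

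The effect of hypoxia in RKO was set against that in A549 and H460 in a joint edgeR fit of all 12 libraries, in which the difference of the log2 changes was tested and an adjusted p under 0.1 called. Both comparisons use the same RKO libraries. The effect differed from that in A549 for 2270 of 15595 genes (14.6%), higher in RKO for 1408 (9.03%) and lower for 862 (5.53%). From H460 it differed for 5857 (37.6%), higher for 3292 (21.1%) and lower for 2565 (16.4%). Scaling by library size alone raised all differences by a median of 0.127 (A549) and 0.389 (H460) and gave 1905 higher and 481 lower against A549 and 5477 and 1182 against H460. Without RKO normoxia replicate 1 the A549 count was 1047, and without RKO hypoxia replicate 1 it was 1384.

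Several lists set RKO apart from both lung lines, the p53 list among them. Splicing factors and CLK kinases had medians of -0.561 in RKO, -0.089 in A549 and -0.0897 in H460. Of these 34 genes 12 were lower in RKO than in A549 and 0 higher, and 17 were lower than in H460 and 1 higher. Sterol and fatty acid genes had medians of 0.661, 0.0877 and 0.192 in the same order, with 13 higher in RKO than in H460 and 2 lower. The rise of p53 list genes was larger in RKO than in A549 for 20 of 32 and smaller for 0. Their median changes were 0.859 in RKO, -0.00257 in A549 and 0.285 in H460, and 17 were larger and 4 smaller than in H460. Without RKO normoxia replicate 1, 10 were larger than in A549, and without RKO hypoxia replicate 1, 13. Chaperones fell further in RKO than in A549 for 14 of 28 genes (4 without RKO normoxia replicate 1, 5 without A549 normoxia replicate 2 or A549 hypoxia replicate 1, 6 without RKO hypoxia replicate 1, 24 without A549 normoxia replicate 1), and ribosome biogenesis for 31 of 85, with medians of -1.07, -0.514 and -1.12 in RKO, A549 and H460. That count was 12 without RKO hypoxia replicate 1, 14 without RKO normoxia replicate 1 or A549 hypoxia replicate 1, 15 without A549 normoxia replicate 2 56 without A549 hypoxia replicate 2 and 19 when scaled by library size alone. Sterol and fatty acid genes rose more in RKO than in A549 for 15 of 33 genes and less for 1, but for 8 without RKO normoxia replicate 1, RKO normoxia replicate 2 or A549 normoxia replicate 1, and for 9 without RKO hypoxia replicate 1.

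Against H460 the DNA replication genes differed most clearly. The change was higher in RKO for 37 of 47 and lower for 1, with medians of -0.273 in RKO and -2.08 in H460, and 35 to 37 were higher with any 1 library left out. DNA repair genes were alike, 23 of 33 higher and 3 lower (medians -0.0977 and -1.18). HIF targets rose less in RKO than in H460 for 26 of 40 and more for 1, with medians of 1.21 and 2.39, and 23 to 27 with any 1 library left out. Clock genes were lower in RKO for 10 of 16 (medians 0.329 and 1.48). The cytosolic ribosome had 55 of 83 genes lower in RKO (medians -0.0593 and 0.545), but 5 when scaled by library size alone and 16 to 67 with any 1 library left out, the fewest without RKO normoxia replicate 1.

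**Figure D4:**
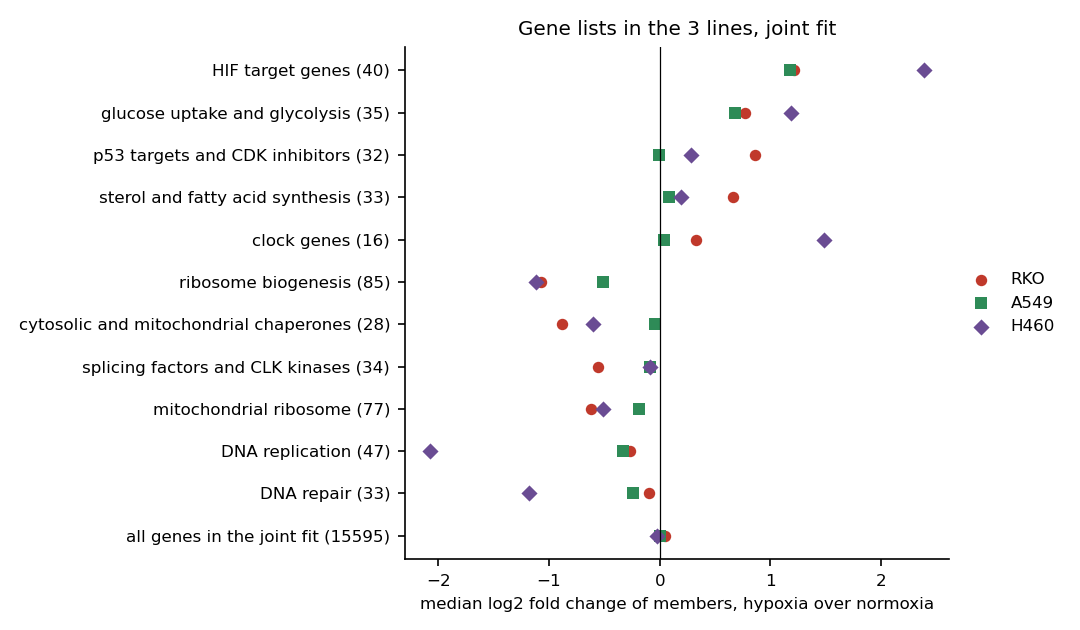
Median log2 fold change in hypoxia (x axis) of the members of 11 gene lists and of all 15595 genes in the joint fit, for RKO (red circles), A549 (green squares) and H460 (purple diamonds), with the number of genes in parentheses. RKO stands apart from both lung lines for p53 targets (0.859 against -0.00257 and 0.285). It also does so for sterol and fatty acid genes (0.661 against 0.0877 and 0.192) and splicing genes (-0.561 against -0.089 and -0.0897). H460 stands apart for DNA replication (-2.08).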

How the data were processed

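The authors sequenced poly(A)+ RNA as stranded single-end libraries, trimmed the reads, aligned them to GRCh37 with TopHat2 2.0.13 and Bowtie2 2.2.3.0, dropped reads of low mapping quality, and deposited gene counts made with HTSeq 0.6.1 in its strand-aware mode. They also deposited RPKM values, which equal counts scaled by gene length and library total. Genes of the 4 RKO libraries over 0.5 CPM in at least 2 libraries were tested by the quasi-likelihood test of edgeR 4.0.16 (R 4.3.3), with TMM factors and Benjamini-Hochberg adjustment, and calls needed an adjusted p under 0.1 and a fold over 1.5, as in the study's own analysis with DESeq2. Values shown are TMM-scaled CPM, and errors are standard errors of the log2 change. Differences between lines came from a joint fit of all 12 libraries, over 15595 genes. Alternatives used DESeq2 1.42.0 and limma 3.58.1. Scripts were tested on simulated data, with changes placed in genes of at least 100 counts on average. The RKO fit called 37.3% of simulated 1.5-fold changes, which sit at the fold minimum, 86.6% of 2-fold and 100% of 4-fold changes. It made 28 false calls in a fit of 12678 genes. A gene that was not called may therefore still have changed by an amount near the threshold. The RKO totals of 33423601 to 39076378 reads gave a median standard error of 0.184. Counting error is not the limit, since replicates differed beyond it.

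Genes were named by rule: the 15 steepest called genes in each direction with at least 100 counts on average and no overlap, key genes of each list, the 3 called members of each list that moved most, and the 5 strongest differences from each lung line in each direction. The 5 most abundant transcripts also belonged to it and none was called: EEF1A1, EEF2, RPL7A, GAPDH and ITGB1. The members and the 36 lists were chosen with earlier results of these data known. Promoter sequences are RefSeq GRCh38.p14, matched by symbol for 10040 tested genes and not by position. The study's own column of HIF1A peaks was used only to group genes. Some genes of the lists were counted but are not reported here by name.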

Additional observations from a re-analysis of the deposited data

Results flagged for a closer look

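Results are listed here because the effect of hypoxia in RKO differed from that in a lung line by a test of the difference itself in the joint edgeR fit of 12 libraries. Both comparisons use the same 4 RKO libraries, and no explanation was tested. The difference from A549 passed an adjusted p of 0.1 for 2270 genes and that from H460 for 5857. The genes below are the 5 with the smallest p in each direction, and each difference kept its sign and its call under all settings in which the gene was tested.

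Against A549, OSGIN1, an NRF2 target, moved in opposite directions, with a log2 change of 2.11 in RKO and -1.96 in A549, a difference of 4.08 ± 0.27. MYO15B changed by 5.39 and 0.21 (difference 5.18 ± 0.28), SYTL2 by 5.12 and 0.49 (4.63 ± 0.27) and the glycosyltransferase gene MGAT5B by 4.35 and -0.41 (4.76 ± 0.29). The rises in RKO started from under 1 CPM for these 3, where A549 had 37.5 CPM or more in normoxia. For DENND3, a RAB exchange factor, the difference was 2.45 ± 0.21. In the other direction PRKAR1B, a regulatory subunit of protein kinase A, changed by -1.35 and 0.81 (-2.15 ± 0.25). FAM13A differed by -2.38 ± 0.28, the metallothionein MT2A by -2.01 ± 0.25, the acyltransferase LPCAT1 by -2.20 ± 0.29 and IGFBP3, which binds insulin-like growth factors, by -2.27 ± 0.30, each with an estimate below 0 in RKO and a rise in A549.

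Against H460, MGAT5B changed by 4.35 in RKO and -1.16 in H460 (difference 5.51 ± 0.29), and OSGIN1 by 2.11 and -1.72 (3.83 ± 0.27). The epoxide hydrolase EPHX1 changed by 1.01 and -2.43 (3.45 ± 0.22), the VEGF co-receptor NRP1 by 2.80 and -0.69 (3.48 ± 0.26), and STRIP2 by 0.60 and -3.22 (3.82 ± 0.29). The growth factor gene PDGFA rose in H460 from 15.7 and 14.3 CPM to 1031 and 961 CPM and in RKO from 5.71 and 5.55 CPM to 10.4 and 9.59 CPM, a difference of -5.23 ± 0.38. KIAA1244 differed by -4.73 ± 0.27, IGFBP3 by -4.24 ± 0.31, the scaffold AKAP12 by -4.01 ± 0.26 and the desmosomal gene DSP by -2.89 ± 0.22. All 5 rose in H460.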

How the results depend on the processing

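With any 1 RKO library left out, 2052 to 2353 genes were called higher and 1511 to 2199 lower. A fold minimum of 2 gave 1359 higher and 621 lower, and no fold minimum gave 2938 lower, as their construction implies. The other alternatives (DESeq2, RLE factors, library size alone, adjusted p under 0.05, other low-count filters, the joint fit and limma on log2(RPKM + 0.1) or log2(RPKM + 1)) stayed within 1.5 times both counts. The balance of rises and falls moved more. Of the called genes 55.6% were higher in the main fit, 55.1% by DESeq2 and 55.7% with RLE factors. The share was 64.6% by library size alone (2744 higher, 1503 lower), 63.2% in the joint fit and 63.6% by limma on log2(RPKM + 0.1). The difference from A549 covered 1047 to 2795 genes, the fewest without RKO normoxia replicate 1 and the most without A549 normoxia replicate 1, and the difference from H460 covered 4093 to 5729 when 1 library was left out. No count over all genes changed direction, and no named gene called in 1 direction was called in the other. The sign of estimates near 0 is less certain, since scaling by library size alone raised the RKO changes by a median of 0.0834. The medians of 6 lists that lie near 0 changed sign under some settings, those of the cytosolic ribosome, ER folding, adhesion, BCL2 family and iron lists and that of the ATF4 list, at -0.0483 without normoxia replicate 2 and -0.0753 without hypoxia replicate 1. Of 174 called genes chosen by the naming rule, 155 were called with each RKO library left out in turn. Same-numbered replicates share only a number in the labels. Across genes with at least 100 counts on average, the normoxia difference between replicates 1 and 2 correlated at 0.375 with the hypoxia difference. Each condition gave only 1 such difference. A fit with the replicate number as a block gave 2532 higher and 2053 lower in RKO, 4200 genes for the difference from A549 and 7157 for that from H460. The cause of the larger A549 count was not tested.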
